A study of Mus musculus with 2 samples.

Results

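Natural killer (NK) cells low in Gzmd, Gzme, Gzmf and Gzmg were taken from single-cell RNA sequencing of lung white blood cells of urethane-treated mice. A barcode was kept as a cell when 500 or more genes were detected in it and no more than 10% of its UMIs came from mitochondrial genes. A UMI, or unique molecular identifier, stands for 1 captured RNA molecule. A kept barcode was a member when it held at least 2 UMIs of Ncr1 and Klrb1c together, at most 1 UMI of Cd3d, Cd3e and Cd3g, fewer than 5 of C1qa, C1qb and C1qc, fewer than 3 of Mki67, Top2a and Birc5, and fewer than 10 UMIs of Gzmd to Gzmg per 10000 of its UMIs. That gave 1698 members of 14179 kept barcodes. Members were chosen by these measured UMI values, so levels of these genes, and the genes that set members apart from other cells, describe the choice and are not findings.

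The labels name 1 Siah1a/2 KO sample and 1 WT sample of Cd45+ cells, both from lungs digested 7 weeks after the mice first received urethane, a carcinogen that causes lung tumours. Siah1a and Siah2 encode ubiquitin ligases. Live cells were sorted with an antibody to CD45.2, and the cells in which the alleles were lost, the age and strain of the mice and the number pooled are not given in the sources used here. The matrix separates 2 libraries by barcode suffix, and nothing in the labels ties a suffix to a genotype, so they stand here as library 1 and library 2 and no genotype comparison was made.

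NK cells are innate lymphocytes that kill infected or transformed cells without a rearranged antigen receptor. They release perforin, which opens membranes, and granzymes, proteases that enter through the openings, and in the mouse their activity is set in part by Ly49 receptors (Klra genes), which are inhibitory or activating, mostly bind MHC class I, and are each switched on in only some of the cells. Related type 1 innate lymphoid cells (ILC1) stay in tissues, share Ncr1 and Klrb1c with NK cells, and differ from them by little or no Eomes, a T-box factor of the NK lineage, and by genes such as Il7r and Cxcr6.

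Library 1 held 891 members, 11.05% of its 8066 kept barcodes (exact 95% interval 10.4 to 11.8), and library 2 held 807, 13.2% of its 6113 (12.4 to 14.1). Of the kept barcodes of both libraries, 2965 met the limit on NK receptors. The limit on Cd3 left 2174, that on C1q 2131, that on cycling genes 1926, and that on Gzmd to Gzmg the 1698 members. Members summed to 8727501 UMIs in library 1 and 6933704 in library 2, with medians of 9187 and 7580 UMIs per barcode. There were 11 barcode sequences present in both libraries, none of them among members. With 1 library of each kind no test was possible. All intervals are exact 95% intervals of counting error, and cells are not replicates of a mouse. UMIs of macrophage genes were found in other cells, and more of them in library 1. There 509 of 891 members, and 197 of 807 in library 2, held 1 to 4 UMIs of C1q genes, and T cell barcodes held 48.6 and 16.0 CPM of C1qa in libraries 1 and 2. No doublet caller was run. Only the limits on Cd3 and C1q bear on doublets, and 56 members (40 in library 1 and 16 in library 2) held at least 10 UMIs of the myeloid genes Spi1, Cst3, Cybb, Mpeg1, Csf1r and Clec7a. Those 56 are left out where stated.

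The label was checked against its markers. In all that follows, a pair of values gives library 1 and then library 2, and CPM is the UMIs of a gene summed over a set and scaled to 1000000 UMIs of that set, from 3′ ends and so not scaled by gene length. Ncr1, the activating receptor NKp46, stood at 613 and 639 CPM and Klrb1c, the receptor NK1.1, at 407 and 421 CPM in members, both in the rule. Both receptors were found together in 1452 members, Ncr1 without Klrb1c in 151, and Klrb1c without Ncr1 in 95. At the lower edge of that limit, 78 members held exactly 2 UMIs of the pair, and 157 barcodes that passed every other limit held 1. The markers outside the rule were present. Gzma, a granzyme abundant in NK cells, stood at 4591 and 5796 CPM in members, against 169 and 256 CPM in T cell barcodes and 27.0 and 14.8 CPM in macrophage barcodes. Eomes stood at 197 and 189 CPM in members, against 18.3 and 17.5 CPM in T cell barcodes. Klra8 (Ly49H) stood at 416 and 352 CPM in members, against 4.70 and 2.03 CPM in T cell barcodes, and Klra4 (Ly49D) at 521 and 574 CPM, against 3.05 and 1.57 CPM. All 4 stood well above both comparison sets in both libraries.

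**Figure D1:**
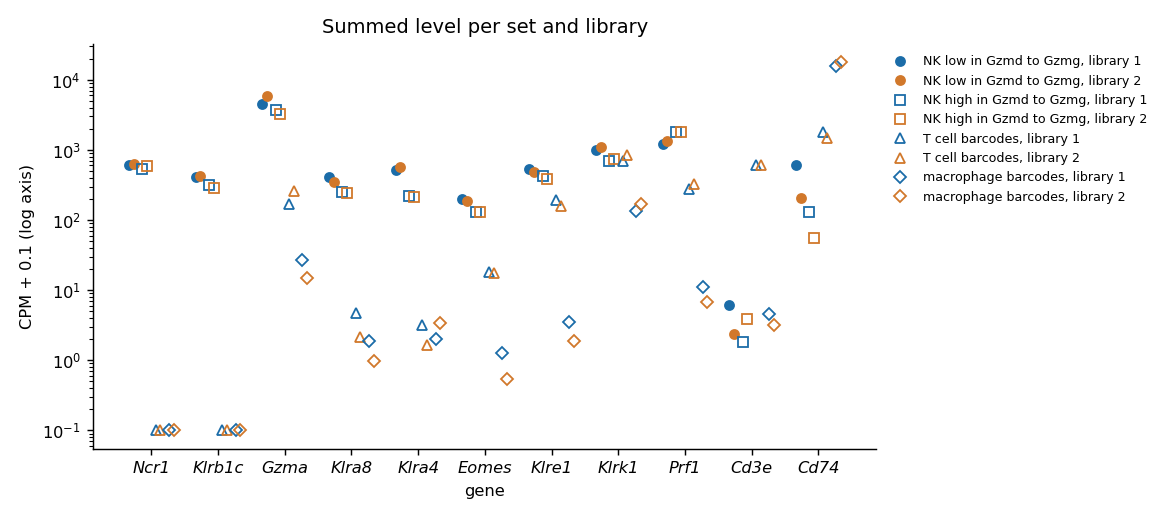
Summed CPM (log axis, with 0.1 added so that 0 can be drawn) of 11 genes in members, in NK barcodes high in Gzmd to Gzmg, in T cell barcodes and in macrophage barcodes, for library 1 (blue) and library 2 (orange). The filled circles of members lie far above the T cell and macrophage symbols for Gzma, Klra8, Klra4 and Eomes, while Cd3e is high in T cell barcodes and Cd74 in macrophage barcodes.

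Markers of other lineages were low, apart from some T cell receptor genes. Trac, the constant part of the T cell receptor alpha chain, stood at 20.2 and 20.6 CPM in members, against 804 and 830.0 CPM in T cell barcodes, while Trbc1, from the beta locus, stood at 704 and 722 CPM in members, against 973 and 903 CPM. The T cell list thus held unequal members: its 9 genes outside the rule summed to 1158 and 1213 CPM in members, against 5491 and 5793 in T cell barcodes, with Trbc1 and Trbc2 most of the sum in members. The 10 markers of other innate lymphoid cells summed to 57.2 and 63.2 CPM in members, against 82.9 and 94.5 CPM in T cell barcodes, and 6 of the 10 were at 0 UMIs in members of each library. A count of 0 allows up to about 3 UMIs per library, as a 95% upper limit rather than the interval used elsewhere. Il13, Il5 and Il22 were among those at 0, and Gata3, a transcription factor also found in T cells, made up most of the sum in members, at 49.0 and 56.8 CPM. The 10 macrophage genes summed to 281 and 126 CPM in members, against 21200.5 and 22458.5 in macrophage barcodes, and to 205 and 81.2 CPM without the 56 members rich in myeloid UMIs.

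Against all other kept barcodes, 118 of 3533 genes counted (3.34%) were at least 2 times higher in members in both libraries, and 386 (10.9%) at least 2 times lower. A gene was counted when it held at least 50 UMIs and 50 CPM in a set compared. Both shares follow from a rule that picks NK cells, and the other barcodes still include other NK cells. The 20 genes furthest up were led by receptors of the NK gene complex. Klra4 stood at 521 and 574 CPM in members, against 35.3 and 35.8 CPM in the other barcodes. Beside it stood Klra8, Klra9, Klra3, Klra7 and the pseudogene Klra13-ps, then Klrb1a, Klrb1b, Klrb1f and Klri2, whose products are lectin-like receptors. Outside the receptors, Car2, a carbonic anhydrase, stood at 458 and 465 CPM in members, against 61.9 and 66.4 CPM, and Khdc1a at 78.7 and 75.7 CPM, against 8.79 and 7.27 CPM. Eomes, Clnk (an adaptor of receptor signalling), Styk1 (a kinase-like receptor), Spry2 (a damper of growth-factor signalling), Dab2ip, Atp1b1 and Emid1 made up the rest with Gzma.

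Ly49 receptors were found in part of the members only. Klra4 had a UMI in 48.9% and 48.0% of members as deposited, and in 43.3% and 43.1% after each barcode was thinned to 3000 UMIs, which left out 23 and 28 shallower members. Members with Klra4 held a median of 9 UMIs of it in each library. The lectin-like receptor Klre1, summed to 531 and 489 CPM, had a UMI in 95.5% and 91.2% of members, or 77.4% and 70.5% thinned, with medians of 5 and 4 UMIs where present. In macrophage barcodes, which should lack both and whose median depths were 10814.5 and 11258 UMIs, Klra4 had a UMI in 2.23% and 3.66% and Klre1 in 3.41% and 2.09%. So Klra4 was absent from about as many members as held it, at several UMIs per barcode, and Klre1 was seen in most. Partial detection was not particular to Ly49 genes. Klrc1, another lectin-like receptor, had a UMI in 65.4% and 61.5% of members, or 49.7% and 49.2% thinned, with medians of 4 and 4.5 UMIs where present.

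**Figure D2:**
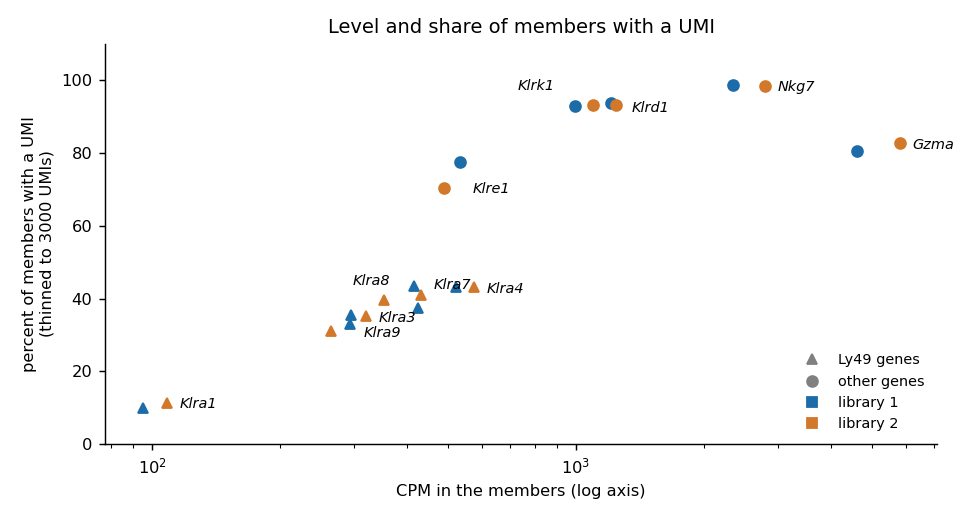
Percent of members with a UMI after thinning to 3000 UMIs against summed CPM (log axis) for Ly49 genes (triangles) and other NK genes (circles) in library 1 (blue) and library 2 (orange). Klra3, Klra9, Klra7, Klra8 and Klra4 sit between 31.1% and 43.5%, while Klre1 sits at 77.4% and 70.5%.

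Many members held UMIs of several of these genes. Of the members without many myeloid UMIs, 73.8% and 70.9% held at least 2 of the 6 Ly49 genes Klra1, Klra3, Klra4, Klra7, Klra8 and Klra9 (64.7% and 63.6% thinned), and 11.3% and 12.4% held none (15.5% and 16.3% thinned). Among thinned members, Klra8 had a UMI in 60.1% and 56.7% of those with Klra4, against 34.8% and 32.3% of those without it, leaving out the members with many myeloid UMIs and those with Tmem176a and Tmem176b described further on. Klra4 and Klra8 both encode activating Ly49 receptors. For Klra9 the shares were 39.9% and 35.5% with Klra4, against 35.7% and 32.3% without it. Klra7 had a UMI in 45.0% and 47.6% of members with Klra4, against 35.5% and 41.1% without it. Klra3 had 39.9% and 40.6% with Klra4, against 32.4% and 34.5% without it, and Klra1 13.3% and 15.8%, against 8.27% and 9.32%. In percentage points the gap was thus wider for Klra8 than for the other genes, in both libraries. As a ratio, the gap of Klra1 was near that of Klra8. These genes were picked after their values were seen. Some pairs without Klra4 went the other way in both libraries. Klra9 had a UMI in 31.7% and 31.3% of thinned members with Klra7, against 41.5% and 35.8% without it. Klra3 had one in 26.8% and 29.1% of those with Klra1, against 36.9% and 38.6% without it. Whether more members held at least 2 of the 6 genes than if each were held independently was not tested. The Klra genes form a cluster of near copies on the minus strand of chromosome 6, where Klra4 spans chr6:130043731-130067271 and Klra8 chr6:130115226-130129898 (GENCODE M21, GRCm38). Counting could split or drop reads that fit several of them, and their values are uncertain for that reason.

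Gzmd to Gzmg, used by the rule, were low in members. A UMI of any of the 4 was found in 283 of 891 members in library 1 (31.8%) and in 131 of 807 in library 2 (16.2%), and none in the other 608 and 676. In macrophage barcodes the share was 25.2% and 12.8%. After thinning it was 14.2% and 8.09% in members, against 7.89% and 5.15% in macrophage barcodes. Much of the share in members was thus also seen in cells that should lack these genes. The 4 genes encode mouse granzymes whose genes lie beside Gzmc on chromosome 14, and Gzmd stood at 23.6 and 19.6 CPM in members, against 4198 and 4399.7 CPM in the 114 and 114 NK barcodes at or above the limit (NK high in what follows). Just inside the limit, at 5 to under 10 UMIs per 10000, lay 17 and 21 members, and just outside it, at 10 to under 20, lay 16 and 15 barcodes. Gzmc stood at 8272 and 14836 CPM in the barcodes just inside, against 15568 and 13452 CPM just outside, and Spp1 at 2075 and 4139 CPM, against 2860 and 5170 CPM. The limit cut a thinly filled range between a large group at 0 and a long tail.

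**Figure D3:**
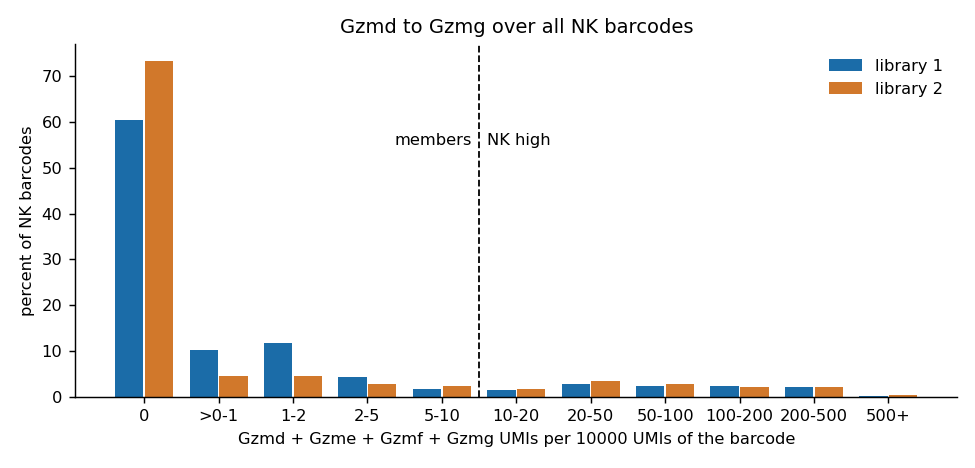
Percent of all NK barcodes of each library by the UMIs of Gzmd to Gzmg per 10000 UMIs of the barcode, for library 1 (blue) and library 2 (orange), with the limit of the rule as a dashed line. The bars at 0 hold 60.5% of NK barcodes in library 1 and 73.4% in library 2, and no bin from 5 upward holds more than 3.37%.

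The promoters of Gzma, Gzmc and Gzmd are shown because these 3 granzymes were found in different parts of the NK barcodes: Gzma was abundant in members and in those above the limit, Gzmc in those above the limit and in some members, and Gzmd was kept low in members by the rule. Each sequence is the 250 bases before the gene's RefSeq start on GRCm38.p6, read 5′ to 3′ on the minus strand, at chr13:113100982-113101231 for Gzma, chr14:56234658-56234907 for Gzmc and chr14:56132594-56132843 for Gzmd. Capitals mark the letters TGTGGT on either strand, the core bound by RUNX factors.
Gzma: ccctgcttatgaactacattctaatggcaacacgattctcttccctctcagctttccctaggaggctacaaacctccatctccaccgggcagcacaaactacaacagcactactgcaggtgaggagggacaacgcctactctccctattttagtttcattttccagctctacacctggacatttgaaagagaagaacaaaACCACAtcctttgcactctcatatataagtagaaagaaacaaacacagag
Gzmc: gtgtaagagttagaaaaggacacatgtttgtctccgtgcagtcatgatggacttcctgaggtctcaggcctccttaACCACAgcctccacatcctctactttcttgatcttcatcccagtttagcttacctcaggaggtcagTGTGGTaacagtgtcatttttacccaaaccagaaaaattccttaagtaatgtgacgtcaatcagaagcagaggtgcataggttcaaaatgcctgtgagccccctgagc
Gzmd: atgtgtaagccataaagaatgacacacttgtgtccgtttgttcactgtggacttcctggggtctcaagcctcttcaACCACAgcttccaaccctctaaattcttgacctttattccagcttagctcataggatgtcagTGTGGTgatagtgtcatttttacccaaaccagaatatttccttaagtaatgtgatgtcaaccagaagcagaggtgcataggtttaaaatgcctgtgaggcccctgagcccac
Gzmc and Gzmd held 2 matches each at like positions and Gzma held 1, and 14.0% of 32851 RefSeq windows of 250 bases held at least 1. Aligned end to end, the Gzmc and Gzmd windows were 80.5% identical, Gzmd and Gzme 94.8%, and Gzma and Gzmd 47.0%. TCACAC, the core of T-box sites, TTCNNNGAA, bound by STAT factors, and TGACTCA, bound by AP-1, had no match on either strand in the 3 windows, and 12.3%, 7.02% and 4.46% of the windows held them. Each motif was searched on both strands, and no match overlapped another. Gzmd to Gzmg are close paralogs, so counting could split their reads, and the value of each alone is uncertain.

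NK high barcodes were the most like set, with medians of 15284.5 and 13496.5 UMIs, against 9187 and 7580 in members. At least 2 times higher in members in both libraries were 33 of 3157 genes counted (1.05%), and 29 (0.919%) were at least 2 times lower. Gzmd to Gzmg are among the 29. The genes named as furthest up or down between sets leave out those the rule used. The rule used this contrast, so these are descriptions. Genes lower in members included Gzmc, at 3630.4 and 3866 CPM in members, against 18081 and 19408 CPM in NK high barcodes. Spp1, encoding osteopontin, a secreted matrix protein and cytokine, stood at 1744 and 1691 CPM in members, against 5774 and 5396 CPM in NK high barcodes. Itga1, the integrin chain CD49a of tissue-resident lymphocytes, stood at 95.8 and 77.9 CPM, against 237 and 189.8 CPM. The list of ILC1 and tissue residency genes went both ways: of 10 counted, 3 were at least 2 times lower in members (Itga1, Tmem176a and Tmem176b) and 2 higher (Cxcr4 and Nr4a1, an immediate early gene). Ifitm1 and Ifitm2, membrane proteins that restrict viral entry, stood at 73.2 and 77.0 CPM and at 291 and 269 CPM in members, against 405 and 441 CPM and 1314 and 1764 CPM in NK high barcodes. The metallothionein Mt1, the zinc importer Slc39a14 and the motor protein Myo10 were lower too, as were Klrg1, an inhibitory receptor, Serpinb1a and Serpinb6a, protease inhibitors, and Gng11, Avil and AA467197.

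Of 9 cytokines and chemokines counted, 4 were at least 2 times higher in members than in NK high barcodes and none lower by that fold, with median log2 ratios of 0.68 and 1.49, against 0.09 and 0.07 over all genes counted. The 4 were Ccl3, Ccl4, Ccl5 and Ifng. Ccl3 stood at 175 and 148 CPM in members, against 18.3 and 10.7 CPM, with log2 ratios of 3.23 (2.75 to 3.81) and 3.76 (3.11 to 4.58). Ccl4 stood at 781 and 829 CPM, against 149 and 138 CPM. Ccl3 and Ccl4 draw other leukocytes, as does Ccl5, which stood at 1499 and 1799 CPM in members, against 385 and 23.2 CPM in NK high barcodes, where the libraries were far apart. Ifng, the interferon of NK cells, stood at 119.5 and 158 CPM, against 42.3 and 32.6 CPM, while the chemokine gene Xcl1 stood at 1368 and 1158 CPM in members, against 1147 and 914 CPM. Of 11 circulation and homing genes counted, 1 was higher by that fold and none lower, with medians of 0.49 and 0.52. That gene was Klf2, a factor that keeps lymphocytes in circulation, at 402 and 529 CPM, against 78.9 and 103 CPM. The chemokine receptor Cxcr4 stood at 42.4 and 91.1 CPM, against 10.9 and 10.0 CPM, and Il18r1, part of the receptor for interleukin 18, at 101 and 125 CPM, against 29.1 and 40.7 CPM. The stress-response genes Nfkbiz and Zfp36 and the interferon-stimulated gene Ifit3 were also among the 15 furthest up. The other genes among them, Cd74, H2-Aa, H2-Eb1, Il1b and Cxcl2, are genes of antigen-presenting or myeloid cells. The MHC class II genes summed to 1286 and 508 CPM in members, against 335 and 194 CPM in NK high barcodes. Without the 56 members rich in myeloid UMIs they summed to 440 and 247 CPM in members. Barcodes rich in myeloid UMIs were not left out of the NK high sums, so those values are not filtered alike. The part of such barcodes in these ratios was not tested beyond that. With such barcodes left out of both sets, Il1b had log2 ratios of -0.18 and -0.21, and Cxcl2 had one of -0.27 in library 1.

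Of 16 genes of cytotoxic granules counted, a list without Gzmd to Gzmg, none was at least 2 times higher and 1, Gzmc, was lower by that fold. Gzma stood at 4591 and 5796 CPM in members, against 3714 and 3243 CPM in NK high barcodes, Gzmb at 2557 and 3229.9 CPM, against 3115 and 3438 CPM, and Prf1, encoding perforin, at 1208 and 1337 CPM, against 1798 and 1814 CPM. Of 17 NK identity genes counted none passed 2 times in either direction in both libraries, with median log2 ratios of 0.19 and 0.21, against 0.09 and 0.07 over all genes counted. Of 7 Ly49 genes counted 2 were at least 2 times higher in members, among them Klra4 at 521 and 574 CPM, against 218 and 216 CPM. Of 16 interferon-stimulated genes 1 passed and none was lower by that fold, with medians of 0.75 and 0.86, and of 16 immediate early genes 3 were higher and none lower, with medians of 0.82 and 0.74.

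Gzmc, which the rule did not use, divided the members themselves. Leaving out the 56 members rich in myeloid UMIs, 573 and 517 members held fewer than 5 Gzmc UMIs per 10000, 132 and 153 held 5 to under 50, and 146 and 121 held 50 or more. Median depths in these 3 groups, in that order, were 7674, 10883 and 12735.5 UMIs in library 1 and 6233, 9808 and 12063 in library 2, so depth moved with Gzmc and its part in the differences was not tested. The cut points were set after the values had been seen. Members with Tmem176a and Tmem176b UMIs, described further on, were not left out of these groups. Those members held more Gzmc than the members without, and their part in the differences was not tested. Of 3213 genes counted, 25 (0.778%) were at least 2 times higher in both libraries at 50 or more than under 5, and 40 (1.24%) at least 2 times lower. Gzmc had a UMI in 64.5% and 57.0% of all members (49.9% and 47.1% thinned), against 29.2% and 15.7% of macrophage barcodes (9.91% and 4.61% thinned).

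Ccl5 was the gene furthest down, at 132 and 74.6 CPM in members with the most Gzmc, against 2432 and 3232 CPM in those with the least, with 391 and 300.3 CPM between. Ccl3 and Ccl4 went the same way, at 30.2 and 10.8 CPM and 253 and 174 CPM with the most Gzmc, against 271 and 240.3 CPM and 1161 and 1259.8 CPM with the least. Of 9 cytokines and chemokines counted 4 were lower by 2 times or more, these 3 and Ifng, and none higher, with median log2 ratios of -0.47 and -1.44, against -0.06 and -0.05 over all genes counted. Xcl1 stood at 1807 and 1437 CPM with the most Gzmc, against 1245 and 962 CPM with the least. Of 11 circulation and homing genes counted 3 were lower and none higher by that fold, with medians of -0.25 and -0.24. Klf2, among the 3, stood at 150.2 and 157 CPM, against 594 and 808 CPM. Cxcr4 stood at 3.71 and 8.82 CPM, against 56.6 and 149.8 CPM, and Itga2, the integrin chain CD49b, an NK identity gene, at 10.1 and 12.2 CPM, against 57.4 and 75.9 CPM. The transcription factors Mef2c and Zeb2, the integrin chain Itga4, the kinase Pim1, the mast cell-type protease Cma1 and the stress genes Nfkbiz and Gadd45b were lower by the same measure. In library 1, 1 member alone held 359 Cma1 UMIs, and its part in the Cma1 ratio was not tested. Gzma stood at 1742 and 2876 CPM with the most Gzmc, against 6581 and 7711 CPM with the least, and Klra4 at 196 and 297 CPM, against 676 and 787 CPM. Gzmb and Prf1 were near level, at 2705 and 2938 CPM and 1299.5 and 1503 CPM with the most Gzmc, against 2699.7 and 3567 CPM and 1223 and 1273 CPM with the least.

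Higher in the members with the most Gzmc were Spp1, at 3396 and 3421 CPM, against 1085 and 769.6 CPM in those with the least, and Itga1, at 186 and 161 CPM, against 57.2 and 37.4 CPM. Of 11 ILC1 and tissue residency genes counted, 5 were at least 2 times higher with the most Gzmc, among them Itga1, Tmem176a and Tmem176b. By the same fold 3 were lower (Cxcr4, Nr4a1 and Ahr), and the median log2 ratios were 0.62 and 0.49. Ifitm1 stood at 164 and 247 CPM, against 10.8 and 23.1 CPM, Ifitm2 at 659 and 735 CPM, against 43.2 and 75.9 CPM, and Ifitm3 at 429 and 506 CPM, against 132 and 85.2 CPM. A few members held much of the Ifitm1: the 9 with the most in each library held 58.1% and 59.4% of its UMIs in all members. For Ifitm2 these shares were 19.6% and 26.3%, and for Ifitm3 21.8% and 30.7%. S100a4, a calcium-binding protein of motile cells, stood at 981 and 1079 CPM, against 246 and 180.4 CPM. Inpp4b, a lipid phosphatase, Gpr34, Mt1, Upp1, Tsc22d1, AA467197 and Gm36723 were higher too. Gzmd stood at 60.0 and 48.8 CPM with the most Gzmc, against 10.1 and 6.32 CPM with the least, and Gzme at 41.9 and 26.4 CPM, against 4.30 and 3.30 CPM. Gzmf differed between libraries, at 20.2 and 46.1 CPM with the most Gzmc, against 27.1 and 6.60 CPM with the least. The rule capped Gzmd, Gzme and Gzmf in members, so these values are bounded by the choice of members. Itga1, Spp1, Ifitm1 and Ifitm2 thus stood higher, and Ccl5, Ccl3, Ccl4, Klf2 and Cxcr4 lower, in the members with the most Gzmc than in those with the least, as they did in NK high barcodes against members. The same members enter both comparisons.

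**Figure D4:**
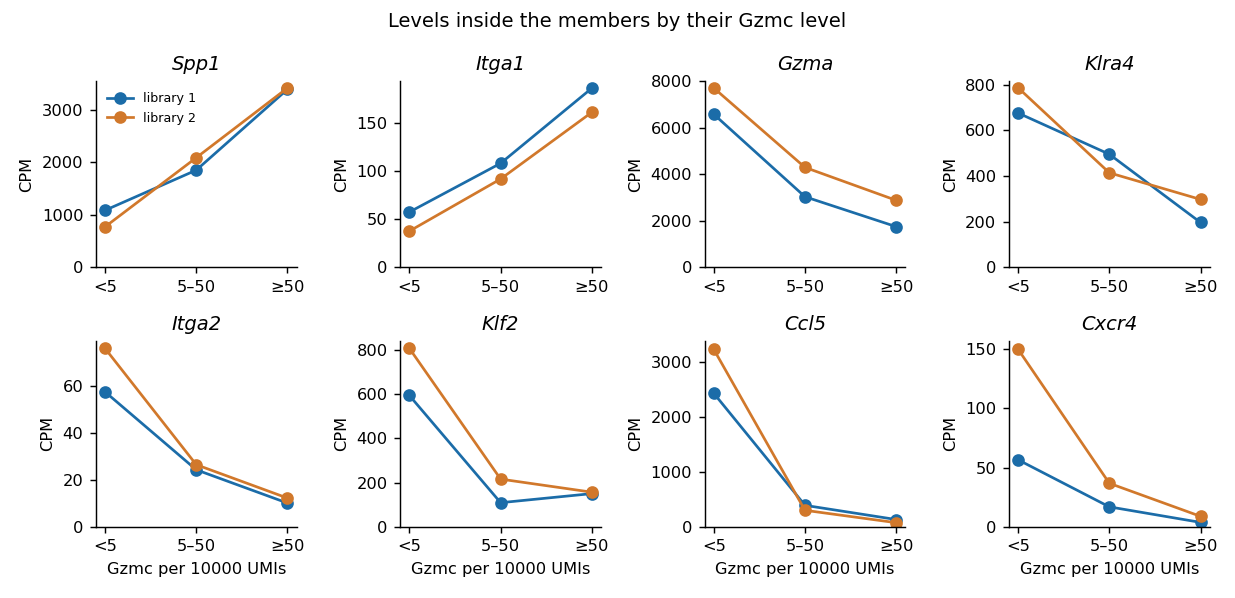
Summed CPM of 8 genes in members by their Gzmc level (under 5, 5 to under 50 and 50 or more UMIs per 10000 UMIs), for library 1 (blue) and library 2 (orange). Spp1 and Itga1 are higher and Gzma, Klra4, Itga2, Klf2, Ccl5 and Cxcr4 lower in the group with the most Gzmc, in both libraries.

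The members were not uniform in their NK identity. Tmem176a and Tmem176b, membrane proteins found in several innate lymphoid cells, are in the ILC1 list, and 52 and 70 members without many myeloid UMIs held at least 2 UMIs of the pair. The split was made after the values had been seen. Their median depths were 9814.5 and 8328 UMIs, against 8924 and 7420 in the other 799 and 721 members. Of 3361 genes counted, 61 (1.81%) were at least 2 times higher in both libraries and 29 (0.863%) at least 2 times lower. Eomes stood at 28.9 and 25.9 CPM in these members, against 216 and 209.6 CPM in the others, Gzma at 599.8 and 779 CPM, against 5097 and 6362 CPM, and Klra8 at 10.8 and 32.4 CPM, against 459 and 394 CPM. All 7 Ly49 genes counted were at least 2 times lower in these members. No Ly49 UMI of the 6 genes above was held by 71.2% and 70.0% of them, against 7.38% and 6.80% of the others, or 82.7% and 80.9%, against 10.95% and 9.93%, after thinning. Myb, a transcription factor of progenitors, Khdc1a, Sh2d1a, an adaptor of activating receptors, Cd55 and Ccl5 were lower in these members as well.

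Genes higher in the members with Tmem176a and Tmem176b included ILC1 genes. Cxcr6, a chemokine receptor of tissue-resident lymphocytes, stood at 99.4 and 100.4 CPM in these members, against 6.97 and 4.63 CPM in the others. Il7r, the interleukin 7 receptor, stood at 43.4 and 105 CPM, against 4.82 and 6.12 CPM, and Rora, a nuclear receptor of innate lymphoid cells, at 57.8 and 76.1 CPM, against 7.77 and 11.4 CPM. Cd226, an activating receptor, stood at 134 and 126 CPM, against 17.3 and 26.1 CPM, Ly6c2 at 1859 and 2239 CPM, against 331 and 458 CPM, and Gzmc at 8866 and 9669 CPM, against 3394 and 3299 CPM. Ramp1, part of a neuropeptide receptor, Ccdc184, Krt83, Ckb, Klk8, Sema6d, Ifitm1 and S100a4 were higher too, as was Trgc4, from the T cell receptor gamma locus, at 101 and 92.3 CPM, against 6.56 and 2.48 CPM. Among all members of a library, the 9 with the most UMIs of Ccdc184 held 86.5% and 67.6% of them. For Ifitm1 that share was 58.1% and 59.4%. Of 14 genes of the ILC1 and tissue residency list counted, 7 were at least 2 times higher and none lower by that fold, with median log2 ratios of 1.05 and 1.20, against 0.05 and 0.04 over all genes counted. Tmem176a and Tmem176b are in that list and chose the members. Ncr1 stood higher in these members, at 837 and 776 CPM, against 619 and 635 CPM in the others. Klrb1c stood lower, at 323 and 393 CPM, against 432 and 431 CPM. The rule required UMIs of this pair in every member, so its presence in both groups follows from the choice. These members go against the NK label by Eomes, Gzma and the Ly49 genes, and the rule does not separate them.

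Between the libraries, few genes of members differed by 1.5 times or more. At least 1.5 times higher in library 1 were 33 of 2972 genes counted (1.11%), and 27 (0.908%) were at least 1.5 times lower, against a median log2 ratio of -0.05 over all genes counted. Of 17 NK identity genes, 7 Ly49 genes, 14 genes of cytotoxic granules and 9 cytokines and chemokines counted, none passed that fold. That is near the small shares over all genes counted, and sets none of these lists apart. Gzma had a log2 ratio of library 1 over library 2 of -0.34 (-0.36 to -0.32), Gzmc of -0.09 (-0.11 to -0.07), Ifng of -0.40 (-0.52 to -0.28) and Klf2 of -0.39 (-0.46 to -0.33). Siah1a stood at 10.2 and 12.7 CPM and Siah2 at 18.7 and 23.4 CPM, below the level at which genes were counted, and neither was used to name a library.

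**Figure D5:**
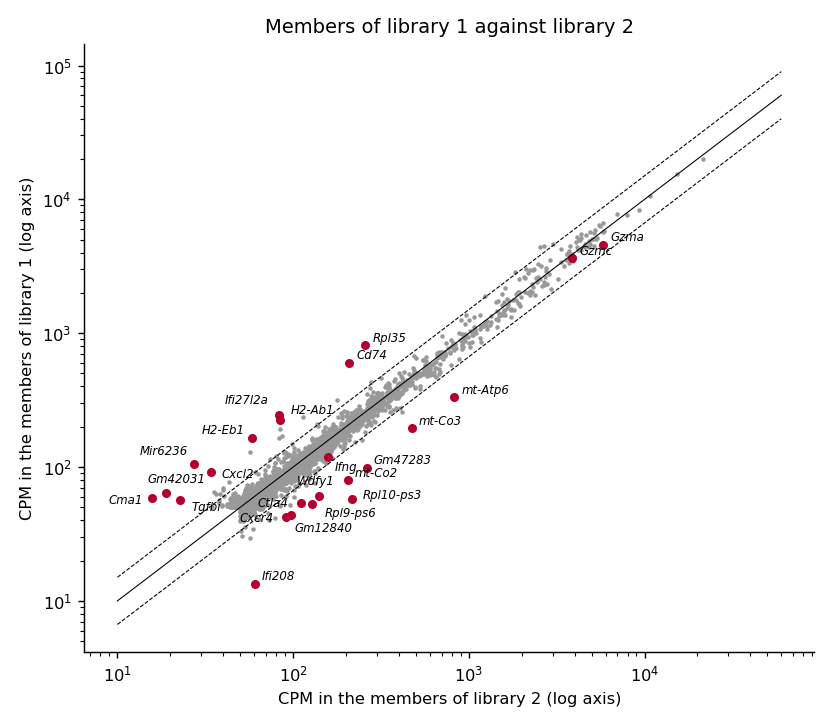
Summed CPM of 2972 genes in members of library 1 (vertical log axis) against library 2 (horizontal log axis), with equality as a solid line and 1.5 times either way as dashed lines. The red points name the 10 highest and 10 lowest ratios, of which Ifi208 and Mir6236 lie furthest from the line, and beside them Gzma, Gzmc, Ifng and Ctla4.

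Several of the lowest ratios were shared by unrelated cells. Rpl10-ps3, a ribosomal pseudogene, stood at 58.2 and 216 CPM in members, which gave a log2 ratio between libraries of -1.89 (-2.04 to -1.74), beside -1.87 in NK high, -1.90 in T cell and -1.85 in macrophage barcodes. The mitochondrial genes mt-Co2, mt-Atp6 and mt-Co3 had -1.36 (-1.50 to -1.23), -1.31 (-1.37 to -1.25) and -1.28 (-1.36 to -1.19) in members, and mt-Atp6 had -1.27 in T cell barcodes and -1.02 in macrophage barcodes. Rpl9-ps6, Gm47283 and Wdfy1, an adaptor of Toll-like receptor signalling, were lower in library 1 in these sets as well. Ifi208, an interferon-inducible gene, stood at 13.4 and 60.3 CPM in members, which gave a log2 ratio between libraries of -2.16 (-2.48 to -1.87), with -2.26 in T cell barcodes. Among the highest, the ribosomal gene Rpl35 stood at 814 and 257 CPM, with 1.66 (1.59 to 1.74) between libraries, beside 1.69, 1.72 and 1.71 in NK high, T cell and macrophage barcodes, and Mir6236 and Gm42031 were higher in library 1 in these sets too. Ratios of pseudogenes and of genes with near copies can move with how reads were counted, and are uncertain for that reason.

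Other ratios were less shared. Cxcr4 stood at 42.4 and 91.1 CPM in members, which gave a log2 ratio between libraries of -1.10 (-1.29 to -0.92), with 0.11 in NK high, -0.34 in T cell and 0.22 in macrophage barcodes, and -1.33 in members without many myeloid UMIs. The NK high ratio rests on few UMIs, since 10 and 13 of the 114 and 114 barcodes held one of Cxcr4. Ctla4, an inhibitory receptor, stood at 53.9 and 111 CPM, with -1.04 (-1.21 to -0.88), beside -0.65 in NK high and -0.50 in T cell barcodes. Ifi27l2a, an interferon-stimulated gene, stood at 245 and 82.8 CPM, with 1.56 (1.43 to 1.70), beside 0.83 in NK high and 0.68 in T cell barcodes. The 9 members with the most Ifi27l2a UMIs in each library held 20.6% and 49.1% of them. Of 16 interferon-stimulated genes counted, 2 were at least 1.5 times higher in library 1 and none lower by that fold, with a median log2 ratio of 0.24. Of 16 immediate early genes, which respond within minutes to stimulation or handling, none was higher by that fold and 1 was lower, with a median of -0.30.

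A few members held much of the UMIs of the remaining genes too. Cma1, a mast cell-type protease, stood at 58.6 and 15.7 CPM, which gave a log2 ratio between libraries of 1.89 (1.60 to 2.21), and the 1% of members with the most Cma1 UMIs held 74.8% of them in library 1 and 27.5% in library 2. In library 1, 1 member alone held 359 Cma1 UMIs, against at most 5 in any member of library 2. The ratio thus rests largely on that member, and its interval of counting error does not cover this. Cxcl2, a chemokine of myeloid cells, stood at 91.7 and 33.9 CPM, with 1.43 (1.22 to 1.65) between libraries, and 94.5% and 88.1% of its UMIs lay in the top 1% of members. Without the 56 members rich in myeloid UMIs, Cxcl2 stood at 4.49 and 12.9 CPM, with a log2 ratio of -1.51. The MHC class II genes Cd74, H2-Eb1 and H2-Ab1 stood at 600.4 and 207 CPM, 165 and 58.6 CPM and 225 and 83.9 CPM, with ratios of 1.53 (1.45 to 1.62), 1.49 (1.33 to 1.66) and 1.42 (1.29 to 1.56). Without those 56 members their ratios were 1.13, 0.91 and 0.87. Of 5 MHC class II genes counted, 4 were at least 1.5 times higher in library 1 and none lower, with a median of 1.42. C1q genes were also higher in library 1, with C1qa at 43.1 and 14.7 CPM in members, and the part of macrophage RNA in these ratios was not tested beyond that. Tgfbi, a secreted matrix protein of myeloid cells, stood at 56.3 and 22.8 CPM, with 1.30 (1.04 to 1.57), and 52.1% and 75.3% of its UMIs lay in the top 1% of members. Gm12840, a predicted gene, stood at 43.5 and 97.5 CPM, with -1.16 (-1.35 to -0.98), and 40.0% and 37.7% of its UMIs lay there.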

How the data were processed

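Raw UMI counts of each gene in each barcode were deposited by the authors. Cell Ranger 6.1.2 made them, as the file headers say, and the submitters' processing notes name build mm10. Their gene annotation was not stated there. Gene positions come from GENCODE M21 (GRCm38) and promoters from RefSeq (GRCm38.p6).

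Rows with the same symbol were summed. UMIs were summed per set and library and scaled to CPM. Log2 ratios had 0.5 UMI added. A gene was counted at 50 or more UMIs and 50 or more CPM. Folds were 1.5 between libraries and 2, in both libraries, between sets. T cell barcodes held at least 2 Cd3 UMIs and macrophage barcodes at least 5 C1q UMIs, neither with Ncr1 or Klrb1c. Intervals are Poisson, Clopper-Pearson and conditional binomial. No sample was dropped, no doublet caller was run, and there was no test, since there was 1 library of each kind.

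Named genes were the 10 furthest each way between libraries, the 15 furthest each way between sets and the 20 highest against the rest, with 22 gene lists beside them, apart from genes named by role, and a few genes that met these rules are not reported here. Members and lists were chosen with earlier results of these data known. The splits by Gzmc and Tmem176a and Tmem176b, and Ctla4, were chosen after their values were seen. Alternatives changed the limits on NK receptors, Cd3, C1q and Gzmd to Gzmg, the cell filter, thinning, scaling, the added UMIs and the CPM minimum. Ratios and intervals were checked on simulated counts. Python 3.11.15, numpy 2.4.6, scipy 1.17.1 and pandas 2.3.3 were used.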

Additional observations from a re-analysis of the deposited data

Results flagged for a closer look

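Of the 20 genes named between libraries, 3 were past 1.5 times in opposite directions in members and in another set of cells. None of these differences was tested, since each set had 1 library of each kind. Tgfbi had a log2 ratio of library 1 over library 2 of 1.30 in members and -0.61 in NK barcodes high in Gzmd to Gzmg. The 1% of members with the most Tgfbi UMIs held 52.1% and 75.3% of them in libraries 1 and 2. Cma1 had 1.89 in members and -0.79 in T cell barcodes, and 1% of members held 74.8% of its UMIs in library 1. Of these, 359 UMIs lay in 1 member alone, on which the ratio in members largely rests. In T cell barcodes the share with a UMI of Cma1 went the other way from the sum, at 8.92% in library 1 and 5.07% in library 2, or 3.81% and 2.02% after thinning to 3000 UMIs. Gm12840 had -1.16 in members and 0.79 in macrophage barcodes.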

How the results depend on the processing

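No paired analysis was possible because each genotype had 1 sample and the barcodes name no genotype. With 0 UMIs of Cd3 genes members made up 7.56% of kept barcodes in library 1 and 10.8% in library 2, and with 0 UMIs of C1q genes 4.74% and 9.98%. With the limit on Gzmd to Gzmg at 20 per 10000, 50 genes were higher in members than in NK high barcodes. With genes counted from 10 CPM, 164 genes were higher and 103 lower in library 1, 99 higher and 72 lower in members than in NK high barcodes, 71 higher and 92 lower with the most Gzmc, and 144 higher and 76 lower with Tmem176a and Tmem176b. With genes counted from 100 CPM, 14 were lower in library 1, 16 lower in members than in NK high barcodes, 12 higher with the most Gzmc, and 40 higher and 16 lower with Tmem176a and Tmem176b. More or fewer genes were tested there by construction. The other 102 shares and counts stayed within 1.5 times or inside their interval. Of the log2 ratios of named genes, 5 changed sign. Cxcl2 between libraries was -0.35 with 0 UMIs of C1q genes and -1.51 without the 56 members with 10 or more myeloid UMIs. With such barcodes left out of members and of NK high barcodes, Cxcl2 was -0.27 over NK high barcodes in library 1, and Il1b -0.18 in library 1 and -0.21 in library 2. Of the others 159 moved beyond their counting interval and 876 stayed inside it. Of the median log2 ratios of gene lists, 100 moved past a set tolerance and 599 stayed within it. Leaving out barcodes with many myeloid UMIs, and the 1% of barcodes with the most UMIs, was chosen after seeing the data. Without those 56, 50 of the 60 genes past 1.5 times between libraries and 48 of the 62 past 2 times against NK high barcodes remained so. After thinning to 3000 UMIs, 50 of the 60 and 48 of the 62 remained so, of 74 and 86 genes then past those folds. The limits are 1 library of each kind, free RNA, mixed barcodes, and a median depth that differs between members and NK high barcodes.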
